A study of Mus musculus with 15 samples.

Results

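The sham samples are the uninjured baseline of a time course of traumatic brain injury, and the immune genes of their microglia are described here. They were taken as the 4 samples whose label gives the injury as sham, of 15 in the series, and all 547 genes of the immune panel were followed in them. RNA was counted on the nCounter platform, which tags each mRNA molecule with a color-coded probe and counts the tags without amplification. The mice were male C57BL6J, and the methods and the results of the study give different ages for them. Sham mice were randomized together with the group killed at 2 days post-injury (dpi), so they are 2-day shams, and none was matched in time to the later groups. The other groups received a controlled cortical impact (CCI) and gave 4 samples at 2 dpi, 4 at 14 dpi and 3 at 60 dpi. Mice of the 14 and 60 dpi groups were not randomized with the others, and the 60 dpi samples came from a second nCounter run. In every group the whole brain was digested with collagenase and dispase, cells were separated on Percoll, and those high for CD11b and low to intermediate for CD45 were sorted. This gate holds microglia and can hold other CD11b-positive cells. No label ties a sample to a named animal, so the spread between samples may include technical spread.

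Microglia are the resident macrophages of the brain. They depend on signals through the CSF1 receptor, survey the tissue with receptors for chemokines, lipids, nucleotides and microbial products, and supply most of the C1q of the brain. Transforming growth factor-beta (TGF-beta) holds them in the homeostatic state. Enzymatic digestion of brain tissue is known to raise early response genes in microglia, among them chemokines and NF-kappaB targets.

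Counts of the immune genes summed to between 66905 and 280528 in the 4 sham samples. Counts were therefore divided by a scaling factor made from the positive controls and the 14 housekeeping genes, which ran from 0.511 to 1.87 in sham, and values so divided are called normalized counts. Background was set in each sample at the mean plus 2 SD of its own 8 negative controls, and a gene passed it where its raw count was higher. This limit lay between 26.1 and 34.0 raw counts in sham. Divided by the scaling factor it was 51.3, 53.0, 17.7 and 19.2 in replicates 1 to 4. The same normalized count could therefore pass in replicates 3 and 4 and fail in replicates 1 and 2. Passing in some samples thus does not rank the samples by level. Sham replicate 4 stood apart in 3 genes of neutrophil granules and cytosol (S100a8, S100a9 and Camp), and the means and ranks of these genes are given with and without it.

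Of the 547 genes, 253 (46.3%) were above background in all 4 sham samples, 99 in 1 to 3 samples and 195 (35.6%) in none. Counts were concentrated in few genes. The 10 most abundant genes held 34.8% ± 0.948 of the immune counts (SD, n = 4), the 30 most abundant held 55.7% ± 3.09 (55.8% ± 3.05 for the 30 most abundant genes of the other 3 samples), and 23 genes sufficed for 50 percent of them. The 195 genes that never passed background held 1.84% together, between 0.901 and 3.01% in the single samples. Mean normalized counts exceeded 1000 for 31 genes and 100 for 193 genes. Between the highest and the lowest mean of a gene above background in all samples lay a 213-fold range. Each gene has its own probe on this platform, and counts do not scale with transcript length. Probes can differ in efficiency, so an order of genes by count is an order of probe counts.

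**Figure D1:**
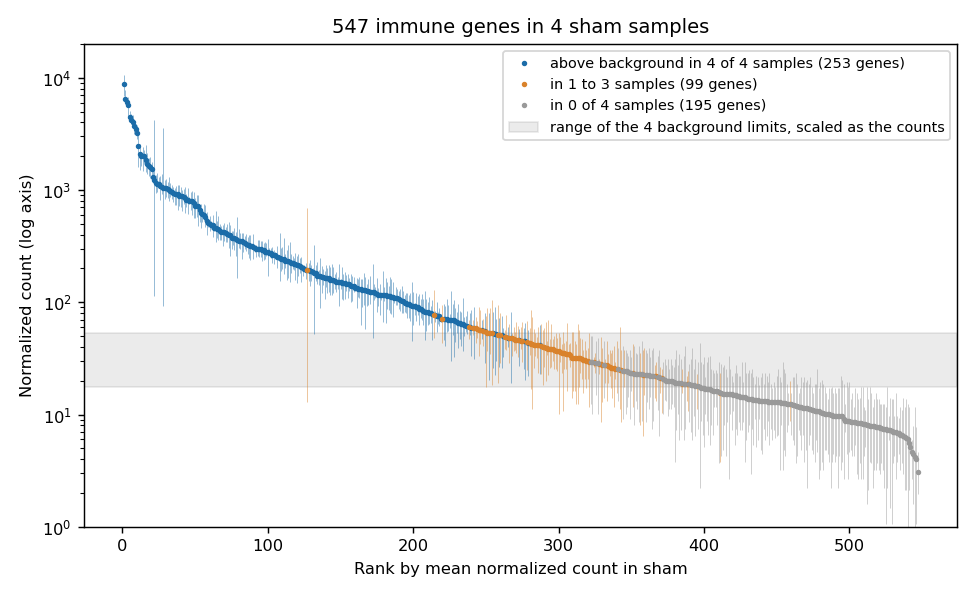
Mean normalized count (log axis) of each of the 547 genes against its rank in sham, with a line from the lowest to the highest of 4 samples. Blue genes were above background in 4 of 4 samples (253), orange in 1 to 3 (99) and grey in none (195). The grey band spans the 4 background limits after scaling, 17.7 to 53.0, and the long lines at ranks 22 and 28 are S100a9 and S100a8.

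The order of abundance was led by microglial receptors and complement. Csf1r, the receptor for CSF1 and IL-34, had raw counts of 3539, 6538, 19684 and 10556 in replicates 1 to 4 and ranked first in each of them. Its normalized count was 8852 ± 1778 (SD, n = 4), and its raw count was 2.30 to 4.72 times that of the housekeeping gene Gapdh. Ctss, the lysosomal protease cathepsin S, had normalized counts of 5951, 6578, 7704 and 5791 and held ranks 2 to 4. C1qb, a chain of the complement initiator C1q, had 5790, 6672, 6121 and 5915, and C1qa, another chain, had 4416, 5033, 4306 and 4270. These C1q genes varied little, with coefficients of variation (CV) of 6.36% and 7.92%. Cx3cr1, the receptor for neuronal fractalkine, had 4347, 6714, 6633 and 5181. Its samples overlapped with those of Ctss, C1qb and C1qa, so the order of these genes below Csf1r was not fixed between samples.

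Adaptors, antigen-presenting molecules and chemokines followed. Cd81, a tetraspanin, followed at 4226 ± 435, and then the chemokine Ccl3 at 4052 ± 434. Tyrobp, the adaptor also called DAP12 that signals for TREM2, had 3143, 4317, 3805 and 3620, and B2m, the invariant chain of MHC class I, had 3354, 3890, 3490 and 3279. Ccl4, a chemokine closely related to Ccl3, was at 3223 ± 381. Of the 30 genes, 23 were among the top 30 of all 4 samples, and 8 were among the top 10 of all 4. The 2 that left the list most clearly were S100a9, ranked 68, 108, 176 and 6 in replicates 1 to 4, and S100a8, ranked 86, 131, 190 and 10.

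**Figure D2:**
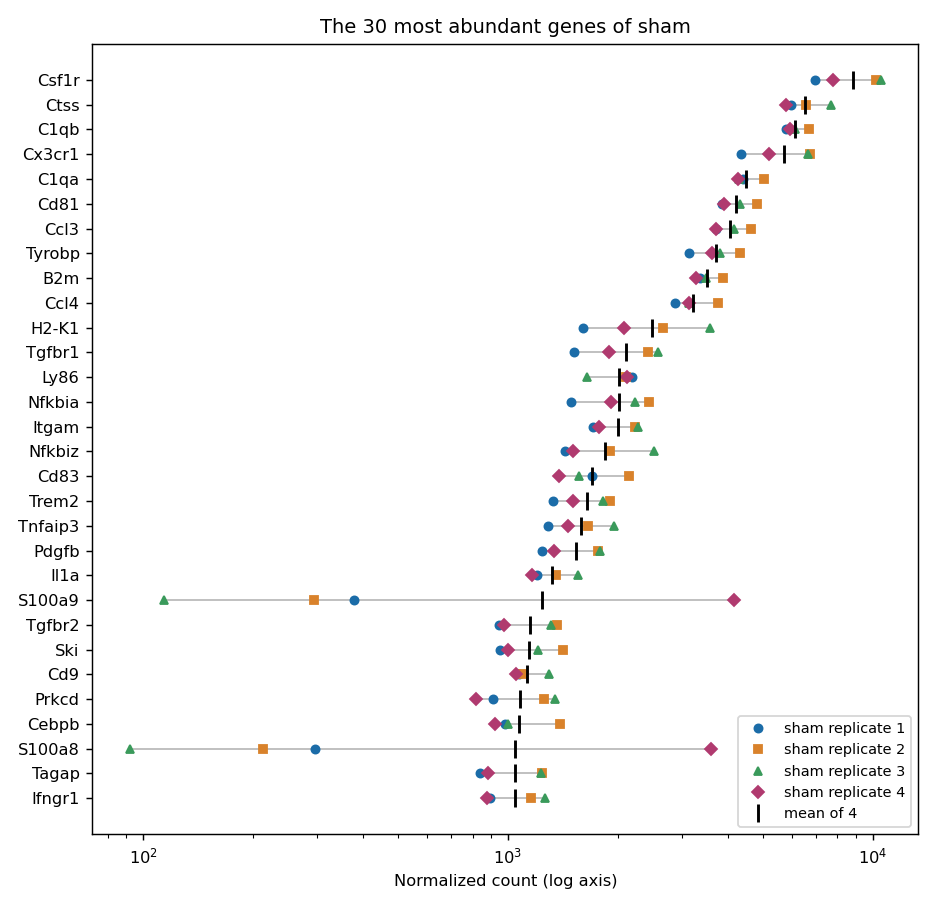
Normalized counts (log axis) of the 30 most abundant genes of sham in each of the 4 samples, with the mean as a black bar. The samples lie close together for most genes, while S100a9 and S100a8 run from 114 to 4176 and from 92.0 to 3592, with replicate 4 at the top of both.

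Of the 25 measured genes listed for microglial homeostasis and receptors, 24 were above background in all sham samples, against 46.3% of the whole panel. Their median level was 1130 normalized counts, against 45.5 over all 547 genes, and they held 39.0% ± 1.74 of the immune counts. Below the leading genes came Itgam, which encodes CD11b, with 1709, 2234, 2278 and 1773, and Trem2, a lipid-sensing receptor, with 1328, 1910, 1821 and 1511. Both were among the top 18 genes of every sample. The exception was Selplg, the P-selectin ligand, which had 14, 29, 45 and 18 raw counts and passed background only in replicate 3. That sample had the largest scaling factor of sham, 1.87. All 8 genes set as markers of microglia (Cx3cr1, Csf1r, Itgam, Trem2, Tyrobp, C1qa, C1qb and Ctss) were among the 18 most abundant genes of the panel. The cells were sorted on CD11b, the product of Itgam, and the lists were chosen with earlier results known. The levels therefore describe the sorted cells and are no test of their identity.

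The promoters of 4 of these abundant genes are shown because they carry short motifs of factors known to act in macrophages. Each is the last 90 bases before the RefSeq start on GRCm38.p6, and capitals mark the core of a PU.1 site (GAGGAA on either strand) or, for Nfkbia, a kappaB match (GGGA and TTCC with any 2 bases between them, on either strand).
Itgam, chr7:128062550-128062639, plus strand: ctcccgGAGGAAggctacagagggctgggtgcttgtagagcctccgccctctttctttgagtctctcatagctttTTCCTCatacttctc
Trem2, chr17:48346311-48346400, plus strand: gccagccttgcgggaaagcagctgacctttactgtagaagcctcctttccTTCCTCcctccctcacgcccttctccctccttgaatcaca
C1qb, chr4:136886201-136886290, minus strand: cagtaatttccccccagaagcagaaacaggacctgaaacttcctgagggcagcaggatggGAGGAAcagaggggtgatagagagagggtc
Nfkbia, chr12:55492648-55492737, minus strand: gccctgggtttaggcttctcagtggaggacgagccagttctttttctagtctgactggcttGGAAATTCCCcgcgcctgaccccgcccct
The PU.1 core lay in the 250 bases before the start of 10 of the 23 top genes with a promoter entry, and in 23.3% of 32851 promoters of the table. The kappaB match lay in 2 of the 23, B2m and Nfkbia, and in 1.21% of all promoters. A gene was counted if any of its promoter entries matched, whereas the percentages are of single promoter entries. These shares are therefore on unlike bases and were not compared in a test. A match is a description of the letters and shows no binding.

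Complement was split. C1qb and C1qa stood near the top, while 20 of the 30 measured complement genes (66.7%) were above background in no sham sample. Over the panel this share was 35.6%. Among these 20 were the terminal components C6, C8a, C8b, C8g and C9 and the lectin pathway genes Mbl2, Masp1 and Masp2, with means between 6.43 and 13.2 normalized counts. C3, the central component, had raw counts of 31, 48, 33 and 87 and was above background in 3 samples, though in replicate 3 it lay just under the limit of 33.1. C4a (71.2 ± 21.0) and Cfb (61.8 ± 9.26), which act upstream and in amplification, were above background in all 4.

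Receptors for antibodies and antigen processing were well represented, with 75.0% and 92.3% of the listed genes above background in all samples, against 46.3% of the panel. Of 8 Fc receptor genes 6 were above background in all samples, led by the inhibitory receptor Fcgr2b (1022 ± 140), the shared signaling chain Fcer1g (866 ± 115), Fcgr3 (820 ± 85.1) and the high-affinity receptor Fcgr1 (806 ± 69.0). Fcer1a, the IgE-binding chain of mast cells and basophils, was above background in none. Of 13 genes for lysosomal proteolysis and antigen processing 12 passed in all samples. The exception was Ctsg, a protease of neutrophil granules, above background in 1 sample. H2-K1, a classical MHC class I heavy chain, varied more than most top genes, with 1606, 2668, 3578 and 2074 and a CV of 34.3%. MHC class II genes were lower. H2-Ab1 had 243 ± 89.8, H2-Aa 232 ± 76.6 and H2-Eb1 229 ± 83.7, below their chaperone, the invariant chain Cd74, at 841 ± 178. Ciita, the master regulator of MHC class II transcription, was above background in no sample.

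Chemokine and cytokine genes had a few very high members, and many members that never passed background. Of 27 chemokine ligands 9 (33.3%) were above background in all samples and 12 (44.4%) in none, against 46.3% and 35.6% of the panel. After Ccl3 and Ccl4 came Ccl12 (714 ± 199), a ligand of CCR2, then Cxcl10 (357 ± 166), an interferon-induced ligand of CXCR3, Ccl9 (354 ± 67.8) and Ccl2 (283 ± 43.1). Cxcl9, Cxcl11, Cxcl13, Ccl8, Ccl11, Ccl20 and Ccl24 were among the 12 that never passed. Of 34 interleukins and colony-stimulating factors 7 (20.6%) were above background in all samples and 22 (64.7%) in none. Il1a, an alarmin of the IL-1 family, led with 1198, 1352, 1559 and 1161, followed by Csf1 (413 ± 51.3), Il16 (282 ± 97.2) and Il1b (250 ± 115). Il1b, the inflammasome-processed cytokine, had 221, 416, 154 and 209 normalized counts, highest in replicate 2. Il6, an acute-phase cytokine, had only 23, 43, 69 and 48 raw counts and passed background in 3 samples. It failed in replicate 1, which had the smallest scaling factor, 0.511. The T-cell cytokines Il2, Il4, Il5, Il17a, Il17f, Il21 and Il22 and the regulatory cytokine Il10 were above background in none.

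Tumor necrosis factor, Tnf, was the most abundant ligand of its family. It had 989, 1112, 660 and 915 normalized counts. Of the 13 TNF-family ligands 9 (69.2%, against 35.6% of the panel), among them Fasl, Cd40lg, Lta and Ltb, were above background in no sample. Of 19 genes for the receptors of the family and their TRAF adaptors 9 (47.4%) passed in all samples, near the 46.3% of the panel, and 8 in none, and the highest was Tnfrsf1b (432 ± 71.3), which encodes TNF receptor 2. None of the 5 interferon genes (Ifna1, Ifna2, Ifnb1, Ifng and Il28a) was above background in any sham sample. By contrast, 14 of 20 genes for interferon receptors, interferon regulatory factors and nucleic-acid sensors passed in all samples and none failed in all. Ifngr1, the ligand-binding chain of the interferon-gamma receptor, stood at 1047 ± 193, Irf5 at 528 ± 116 and Irf8, a factor required for microglial development, at 420 ± 76.9. This is a description of 5 and 20 genes, with no test.

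Receptors for cytokines were above background about as often as the panel. After Csf1r, the highest of 33 cytokine receptors were Il10ra (997 ± 228), Csf3r (792 ± 197), Il6ra (623 ± 149) and Il4ra (614 ± 78.0), and 16 of the 33 (48.5%) passed in all samples, against 46.3% of all genes. Csf3r, the G-CSF receptor, is widely used to mark neutrophils, and it had 640, 990, 931 and 604 normalized counts in replicates 1 to 4, of which only the last was rich in S100a8. Of 7 Toll-like receptors 5 (71.4%) passed in all samples, with Tlr2 at 375 ± 54.8 and Tlr9 at 325 ± 67.4, and Tlr8 in none. Their partners were higher, with Ly86, also called MD-1, at 2017 ± 246 and Cd14 at 958 ± 119. Of 25 chemokine and chemoattractant receptors 8 (32.0%) passed in all samples and 13 (52.0%) in none, against 46.3% and 35.6% of the panel. Among those below Cx3cr1 were Gpr183 (813 ± 198), an oxysterol receptor, and Ccrl2 (801 ± 136), which presents chemerin. The monocyte receptor Ccr2 had 20, 24, 39 and 29 raw counts and passed in 2 samples, those with the largest scaling factors (1.87 and 1.36).

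Most measured signaling genes were above background in all samples. Of 14 NF-kappaB genes 12 were above background in all samples and none failed in all, and 9 of 10 MAP kinase genes and 12 of 16 JAK-STAT genes passed in all. Nfkbia, Nfkbiz and Tnfaip3, which NF-kappaB itself induces, had higher counts than its subunits. Nfkbia, which holds NF-kappaB in the cytoplasm, had 1490, 2431, 2229 and 1915. Nfkbiz stood at 1840 ± 494 and Tnfaip3, the ubiquitin-editing enzyme A20, at 1590 ± 286, against 343 ± 67.1 for Nfkb1 and 153 ± 33.2 for Rela. In the TGF-beta pathway 8 of 11 genes (72.7%) passed in all samples. Tgfbr1 had 1520, 2423, 2571 and 1898, Tgfbr2 had 948, 1366, 1315 and 977, and Ski, a repressor of SMAD signaling, was at 1143 ± 212. The ligand Tgfb1 was at 723 ± 119, while Tgfb3 was above background in no sample.

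A list of 27 genes known to respond quickly in handled or activated myeloid cells had 20 members (74.1%) above background in all samples. Over the panel this share was 46.3%. The 27 genes held 15.1% ± 0.154 of the immune counts, and the samples lay between 14.9 and 15.3%. Ccl3, Ccl4, Nfkbia, Nfkbiz, Cd83, Tnfaip3, Il1a and Cebpb, all members of it, were among the 30 most abundant genes. Cd69, an early activation antigen of lymphocytes, was the only member above background in none. The digestion and sort were common to every sample, and their part in these levels was not tested.

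**Figure D3:**
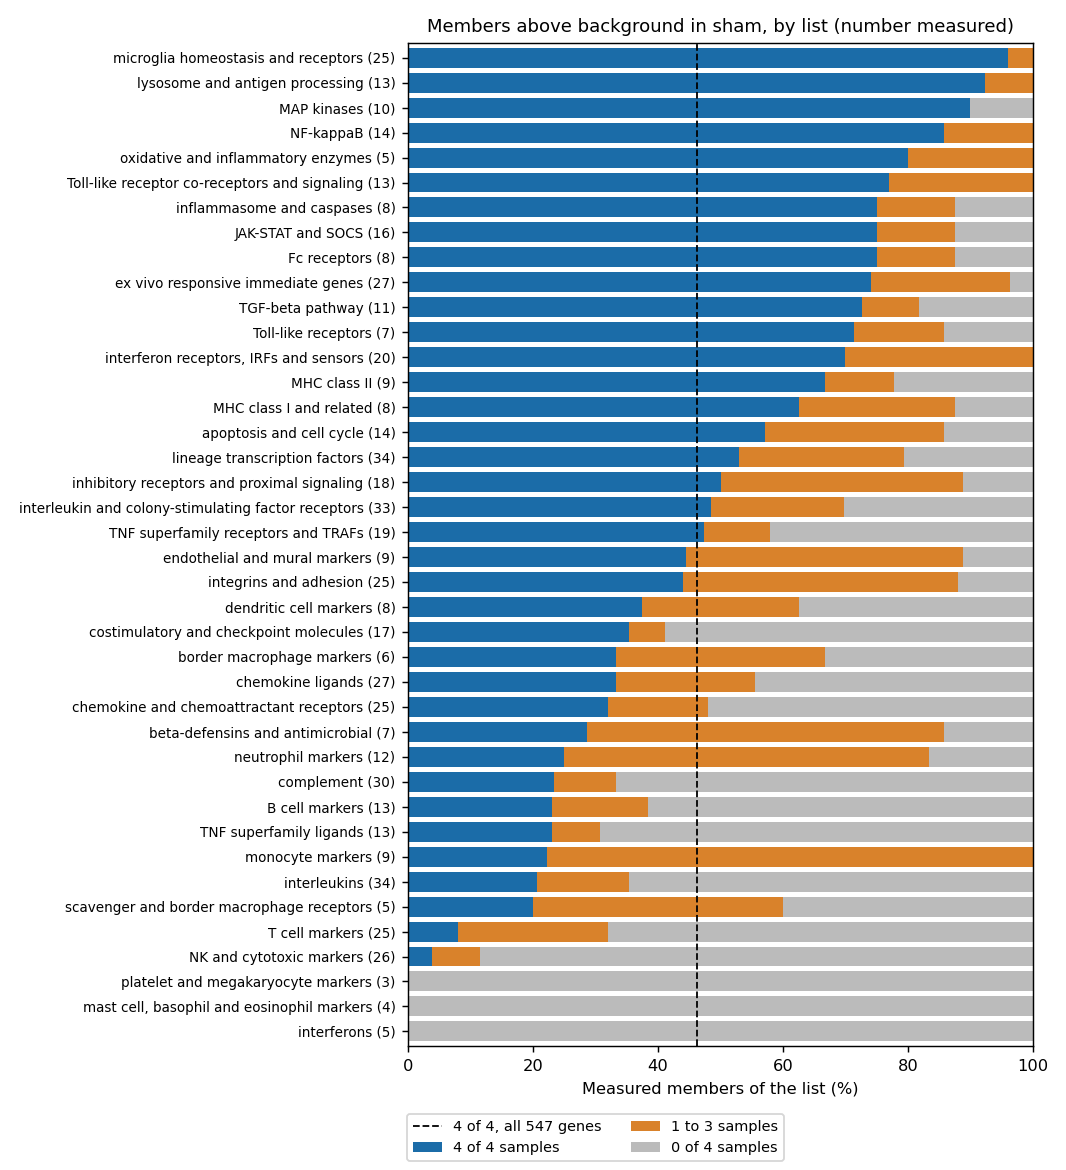
Share of the measured members (%) of each of the 40 gene lists that were above background in 4 of 4, in 1 to 3 and in 0 of 4 sham samples, with the number measured in parentheses. The dashed line marks the 46.3% of all 547 genes above background in 4 of 4 samples. Microglial homeostasis (24 of 25 in all samples) lies at the top, and interferons (0 of 5), mast cell (0 of 4) and platelet genes (0 of 3) lie at the bottom.

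Markers of T cells, NK cells, mast cells and platelets were mostly below background, while those of other myeloid and of endothelial cells were mixed. Over the panel 46.3% of the genes passed in all samples and 35.6% in none. Of 25 T cell markers 17 (68.0%) were above background in no sample, and of 26 NK and cytotoxic markers 23 (88.5%) were in none. The CD3 chain Cd3e had raw counts of 7, 11, 7 and 6, the coreceptor Cd8a 11, 6, 13 and 9, and the B cell antigen Ms4a1 6, 5, 6 and 5. All of these lay below the limits. The 4 markers of mast cells, basophils and eosinophils and the 3 of platelets were likewise above background in no sample. Of 13 B cell markers 3 passed in all samples, Blnk (394 ± 107), Tnfrsf17 (141 ± 39.8) and Tnfrsf13b (95.6 ± 19.7), while Pax5, Cd79a and Ms4a1 passed in none. Of 9 monocyte markers 2 passed in all samples, Fn1, fibronectin (262 ± 12.7), and Tgfbi, a matrix protein (226 ± 35.3), and the other 7 passed in some. Of 8 dendritic cell markers 3 passed in all samples, Batf3 (113 ± 41.1), H2-Ob (81.8 ± 21.1) and the chemokine Ccl22 (44.8 ± 23.7). Another 3 (37.5%) passed in none, near the share of the panel. Of 6 border macrophage markers 2 passed in all samples, the transcription factor Maf (153 ± 53.2) and the scavenger receptor Msr1 (64.2 ± 19.6). Cd36 and Cd163 passed in some, Cd163 with 33, 23, 72 and 31 raw counts, and Cd209g and Marco in none. Of 9 endothelial and mural markers 4 (44.4%) passed in all samples, near the share of the panel. Pdgfb, a growth factor, was high at 1533 ± 285 and Cd34 was at 490 ± 31.2. Pecam1 had 116, 95.1, 182 and 123 and the endothelial transporter Abcb1a 114, 73.3, 153 and 106, both highest in replicate 3. Cdh5, the cadherin that defines endothelial cells, had 13, 20, 100 and 52 raw counts and was likewise highest in replicate 3.

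Some genes passed the background limit without behaving as the RNA input did. The scaling factor of the sham samples ranged 3.66-fold, whereas the mean of the negative controls ranged only 1.27-fold. For each probe the slope of log2 raw count on log2 scaling factor was taken over the 4 samples, so that a slope near 1 means counts that grew with input and a slope near 0 means counts that did not. The median slope was 0.89 for the housekeeping genes (0.54 to 1.12), -0.05 for the negative controls (-0.35 to 0.36), 0.93 for the 253 genes above background in all samples and 0.10 for the 195 above in none. The housekeeping genes help to make the factor, so their slopes lie near 1 by construction. With 4 points a single slope is imprecise, and the measure was added after the data had been seen.

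Of the 253 genes, 24 had a slope under 0.5. Their median level was 58.9 normalized counts, and several encode proteins best known from lymphocytes. Ikzf4, a factor of regulatory T cells, had 65, 58, 56 and 43 raw counts in samples whose factors were 0.511, 0.641, 1.87 and 1.36. The T cell costimulator Cd28 had 78, 82, 84 and 66, the CD3 zeta chain Cd247 had 41, 50, 38 and 48, the granule protease Gzma had 33, 58, 42 and 41, and the gut-homing receptor Ccr9 had 42, 49, 50 and 35. None of these followed the input. Cd28 and Cd247 were the only T cell markers, and Gzma the only NK and cytotoxic marker, above background in all sham samples, so with a slope of at least 0.5 required as well neither list kept a member. The interleukin Il13 (54, 81, 87 and 68 raw counts) and the chemokine Ccl22 (33, 42, 38 and 39) were also among the 24. Higher counts occurred there too. The inducible nitric oxide synthase Nos2 had 116, 158, 167 and 162 and Cxcl10 had 291, 222, 308 and 473, both far above the limits but with slopes of 0.21 and 0.28. With the slope required, 229 genes remained of the 253, and all 24 listed genes of microglial homeostasis were kept.

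**Figure D4:**
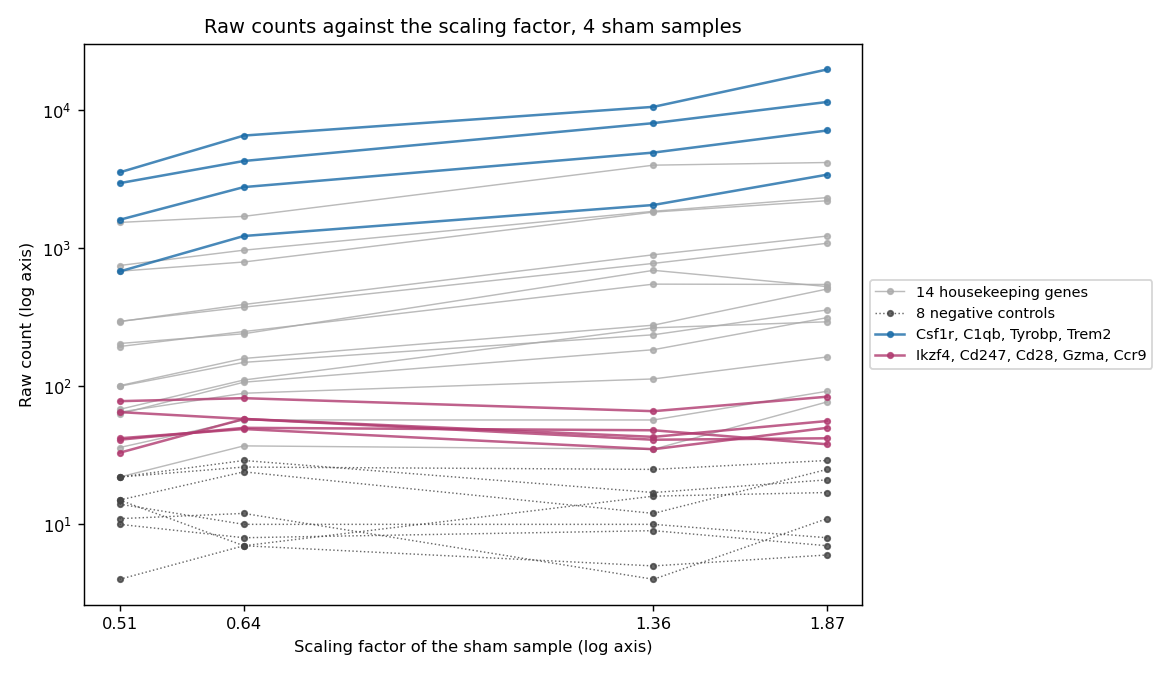
Raw counts (log axis) of probes in the 4 sham samples against the scaling factor of the sample (log axis). Housekeeping genes (grey) and Csf1r, C1qb, Tyrobp and Trem2 (blue) rise with the factor, while the 8 negative controls (dotted) and Ikzf4, Cd247, Cd28, Gzma and Ccr9 (purple, slopes of -0.18, -0.07, -0.03, 0.01 and -0.01) do not.

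The spread between sham samples was moderate for most expressed genes. Over the 253 genes the median CV of the normalized counts was 20.2%, against 7.84% for counting error alone, and 206 genes had a CV under 30 percent. Genes above 100 normalized counts (192 of the 253) had a median CV of 18.7%, and the 61 at or under 100 had 26.1%. Between pairs of sham samples the correlation of log2 normalized counts over the 253 genes was 0.942 to 0.974, a description across genes, which are not independent. The 5 steadiest genes were Ptpn6, which encodes the phosphatase SHP-1 (303, 320, 333 and 303), Fn1, fibronectin (CV 4.84%), Tnfrsf11a, the RANK receptor (4.93%), Clec5a, a DAP12-coupled lectin (5.03%), and Ctsc, cathepsin C (5.34%).

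Of the 253 genes 14 had a CV over 50 percent, and 12 of these were genes with a slope under 0.5. Both measures use the same scaling factor. Flat raw counts become variable once divided by it, so this overlap is no separate result. The other 2 were S100a8 and S100a9. Ncam1, a neural adhesion molecule also used as an NK marker, was the largest of the 12 by level. It had 165, 137, 262 and 71 raw counts, or 323, 214, 140 and 52.2 normalized. Outside the 14 genes, Icam5, an adhesion molecule of neurons, had 155, 161, 142 and 62.5 normalized counts. Clu, clusterin, an astrocyte product and likewise outside the 14, had 168, 125, 160 and 57.3. Ncam1, Icam5 and Clu were all lowest in replicate 4.

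S100a8 and S100a9 encode the subunits of calprotectin, abundant in neutrophils, and Camp encodes the granule peptide cathelicidin. Raw counts of S100a8 were 151, 137, 172 and 4886 in replicates 1 to 4, those of S100a9 were 193, 189, 213 and 5679, and those of Camp were 25, 13, 24 and 939. Replicate 4 exceeded the highest other sham sample 12.1-fold in S100a8 after scaling, and Camp was above background in replicate 4 alone. These 3 genes made up 6.29% of its immune counts, against 0.146 to 0.552% in the others. Without it the mean of S100a8 fell from 1048 to 200.4, that of S100a9 from 1240 to 262 and that of Camp from 193 to 27.4, and their ranks became 126, 107 and 343. The 12 measured neutrophil markers summed to 9311 normalized counts in replicate 4 and to 1273 to 1782 in the others, and 3 of them were above background in all sham samples. Csf3r was lowest there, at 604 against 640 to 990 in the others. Ltf, the granule protein lactoferrin, had 12, 10, 7 and 27 raw counts and was above its limit, which was 26.1, in replicate 4 alone. After scaling, Ltf had 23.5, 15.6, 3.74 and 19.9 and was highest in replicate 1. The chemokine receptor Cxcr2 had 3, 11, 5 and 23 raw counts, all below the limits. After scaling, Cxcr2 had 5.87, 17.2, 2.67 and 16.9 and was highest in replicate 2. Cxcr1 was likewise above background in no sham sample. The source of the counts in replicate 4 was not tested.

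The same 3 genes were high in other groups. At 2 dpi, replicate 3 had 4171 normalized counts of S100a8, 4596 of S100a9 and 759 of Camp, while the other 2 dpi samples had 322 to 929 of S100a8. At 14 dpi S100a8 ran from 209 to 615, and at 60 dpi from 4469 to 19855. The edgeR adjusted p of S100a8 at 60 dpi against sham was 0.0676, with a log2 fold change of 3.25 ± 1.28 (SE). All 3 samples at 60 dpi lay above all 4 sham samples in S100a8. This call turned on sham replicate 4. Without it S100a8 was higher at 60 dpi by 5.67 ± 1.15 on the log2 scale (edgeR adjusted p = 0.0037) and S100a9 by 4.94 ± 1.17 (adjusted p = 0.00892). S100a8 was then also higher at 2 dpi, by 2.95 ± 0.996 (adjusted p = 0.0391), against 0.53 ± 1.14 with all samples (adjusted p = 0.738). Sham replicate 4 was set aside for its counts of these same genes, while 2 dpi replicate 3 was kept. The values without it are therefore descriptions and no independent test. DESeq2, with all samples, called S100a8 higher at 60 dpi as well.

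**Figure D5:**
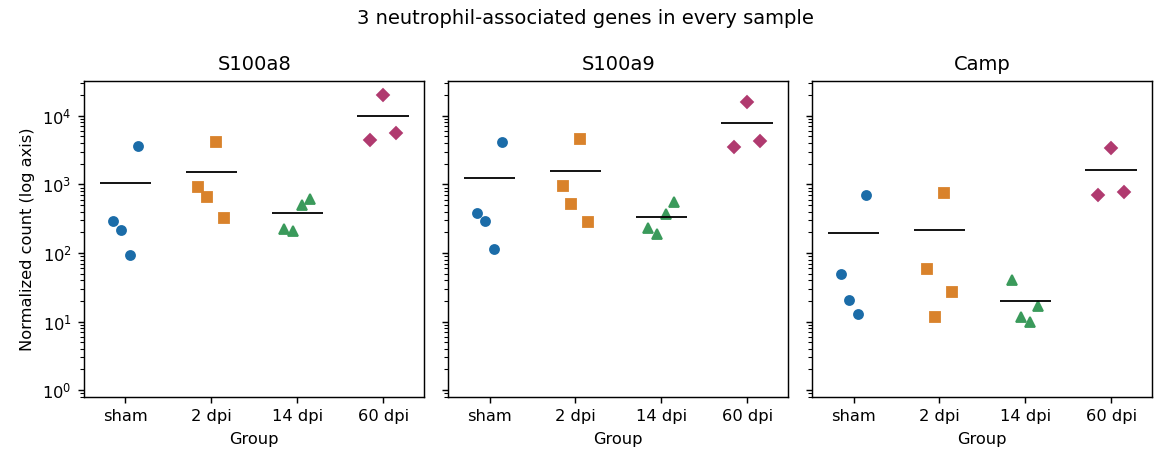
Normalized counts (log axis) of S100a8, S100a9 and Camp in each of the 15 samples by group, with a line at the group mean. A single sham sample and a single 2 dpi sample stand at the level of the lower 60 dpi samples, with 3592 and 4171 of S100a8 against 4469 to 19855.

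The sham profile was set against each time point in the number of genes above background and in the concentration of counts. Sham samples had 268, 286, 324 and 331 genes above background. The mean of 302 ± 30.2 compared with 328 ± 7.14 at 2 dpi (n = 4), 320 ± 31.8 at 14 dpi (n = 4) and 282 ± 8.14 at 60 dpi (n = 3). None of these differences passed an exact two-sided permutation test (adjusted p = 0.514, 0.549 and 0.549 over 6 comparisons). Samples with small scaling factors had fewer genes above background in sham and at 14 dpi. The 268 and 286 came from the sham samples with factors of 0.511 and 0.641. At 14 dpi, factors of 0.614 and 0.592 went with 292 and 293 genes, and factors of 1.44 and 1.03 with 350 and 345. The part of RNA input in the group differences was not tested. The background limits at 60 dpi were 57.1 to 67.7 raw counts, above the 25.0 to 34.0 of the first run, and in this count the run cannot be told apart from the time point. With NEG_B left out of the limit the 60 dpi difference changed sign, from -20.6 to 27.4 genes.

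The 10 most abundant genes of each sample itself held 33.9, 34.6, 36.4 and 35.7% in sham (mean 35.1% ± 1.14). At 14 dpi the share was higher in every sample, at 38.7% ± 1.20. This difference of 3.54 percentage points had an exact two-sided permutation p of 0.0286, the smallest that 4 against 4 samples allow, and 0.171 after adjustment over the 6 comparisons. At 2 dpi the share was 32.9% ± 1.38 (exact p = 0.0571, adjusted p = 0.171) and at 60 dpi 35.7% ± 5.67 (exact p = 0.857). With 3 samples against 4 the smallest possible p is 0.0571.

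The genes that dominated sham were also compared in level with each time point, in an edgeR quasi-likelihood fit of all 359 genes above background in at least 3 of 15 samples. The 30 genes were chosen by the sham counts that enter each comparison, and the 3 comparisons share these samples, so the counts of calls are descriptions. At 2 dpi 14 of the 30 were lower and 0 were higher at an adjusted p under 0.05, against 28.1% lower and 7.24% higher over all 359 genes. At an unadjusted p under 0.05 it was 15 and 0, and DESeq2 called 8 lower and 2 higher. Cx3cr1 had 2666 to 3621 normalized counts at 2 dpi, below every sham sample (log2 fold change -0.89 ± 0.15, adjusted p = 0.0013). Tgfbr1 fell by 0.96 ± 0.18 on the log2 scale (adjusted p = 0.0016), to 922 to 1363. Tagap, a GTPase-activating protein of lymphoid and myeloid cells, fell by 0.97 ± 0.19 (adjusted p = 0.00207), and Csf1r by 0.70 ± 0.16 (adjusted p = 0.00352). C1qb fell by only 0.39 ± 0.13 (adjusted p = 0.0215) and Trem2 by 0.47 ± 0.16 (adjusted p = 0.025). Ccl3 and Ccl4 had log2 fold changes of 0.04 ± 0.22 and 0.16 ± 0.26 and did not pass.

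At 14 dpi the 30 genes went the other way, with 13 higher and 1 lower, against 21.4% and 4.18% of all tested genes. B2m had 7783 to 12113 normalized counts, above every sham sample (log2 fold change 1.50 ± 0.16, adjusted p = 2.78e-06). Cd83, a surface protein of activated antigen-presenting cells, rose by 1.42 ± 0.23 (adjusted p = 0.000134), Tnfaip3 by 1.18 ± 0.25 (adjusted p = 0.00185), Ccl4 by 1.17 ± 0.26 (adjusted p = 0.00277) and Ccl3 by 0.99 ± 0.22 (adjusted p = 0.00243). Ctss had 9773 to 12314 and rose by 0.76 ± 0.14 (adjusted p = 0.000406). Csf1r and Cx3cr1 had log2 fold changes of -0.25 ± 0.16 and -0.26 ± 0.15 and did not pass, but with TMM factors, and with DESeq2, both were called lower. The 1 gene called lower was Tagap, by 0.76 ± 0.19 (adjusted p = 0.00652).

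At 60 dpi 3 of the 30 were higher and 3 lower, against 25.3% and 11.1% of all tested genes. Nfkbia rose by 0.93 ± 0.21 on the log2 scale (adjusted p = 0.00205), to 2942 to 4690 normalized counts. Tyrobp (0.45 ± 0.17, adjusted p = 0.0402) and H2-K1 (0.64 ± 0.24, adjusted p = 0.0426) were the others called higher. Ly86 fell by 1.01 ± 0.16 (adjusted p = 7.34e-05), with 930 to 1122 against 1652 to 2191 in sham. Cebpb, a transcription factor of myeloid inflammatory genes, fell by 1.11 ± 0.22 (adjusted p = 0.000742) to 384 to 594, and Cx3cr1 fell by 0.52 ± 0.17 (adjusted p = 0.0219). The second run and the time point cannot be told apart here either. The summed neutrophil markers were 9668 to 40497 at 60 dpi, 1207 to 10273 at 2 dpi and 1499 to 2412 at 14 dpi, and their part in these results was not tested.

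The scaling bears on these counts. TMM factors shifted the mean log2 normalized count of every gene, relative to sham, by 0.26 at 2 dpi, -0.19 at 14 dpi and -0.13 at 60 dpi. They changed the split to 8 lower and 1 higher, 10 higher and 6 lower, and 1 higher and 7 lower. Cx3cr1, Csf1r, Tgfbr1 and Tagap were still called lower at 2 dpi, B2m, Cd83, Ccl3, Ccl4, Ctss and Tnfaip3 higher at 14 dpi, and Nfkbia higher and Ly86, Cebpb and Cx3cr1 lower at 60 dpi, whereas Trem2 and C1qb at 2 dpi and Tyrobp and H2-K1 at 60 dpi were not. With positive-control factors alone, which leave out the housekeeping genes, edgeR called none of the 30. These factors shifted the mean log2 normalized counts, relative to sham, by 0.31 at 2 dpi, -0.07 at 14 dpi and -0.10 at 60 dpi. Fitted fold changes of single genes moved by other amounts. The median CV of sham was then 56.8% against 20.2%. The rise of B2m at 14 dpi, for example, was then 1.29 ± 0.46 on the log2 scale (adjusted p = 0.074) in place of 1.50 ± 0.16.

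Few genes passed background only after injury. Of the 195 genes above background in no sham sample, 3 (1.54%) passed in every sample at 2 dpi, 1 (0.513%) at 14 dpi and 4 (2.05%) at 60 dpi. Ifnb1, interferon-beta, had 13, 14, 18 and 22 raw counts in sham, or 25.5, 21.8, 9.62 and 16.2 normalized. It passed background in all 4 samples at 2 dpi and all 4 at 14 dpi, with 23.4 to 96.4 and 23.6 to 361 normalized counts. The lowest sample of each time point was thus below sham replicate 1. Its edgeR adjusted p was 0.0545 at 2 dpi and 0.00277 at 14 dpi. The others at 2 dpi were Bst1, an ectoenzyme of myeloid cells, and the checkpoint receptor Pdcd1 (edgeR adjusted p = 0.106 and 0.0631). At 60 dpi they were Tnfrsf8, also called CD30 (12.98 ± 6.01 in sham and 73.0 to 99.2 at 60 dpi), the chemokines Cxcl11 and Ccl11, and Tlr8. In the other direction, of the 253 genes above background in all sham samples, 0 were above it in no sample at 2 and 14 dpi and 13 (5.14%) at 60 dpi, where the limits were higher. Hif1a, the hypoxia-inducible factor, and Casp1, the inflammasome caspase, were among the 13. The numbers of genes are counts of passing a limit, with no test.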

How the data were processed

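Sorted CD11b-high cells of 15 mouse brain samples were measured on an nCounter panel of immune genes, and the 4 sham samples are described. The paper calls this a mouse inflammation panel, whereas the deposited counts carry the name immunology. The authors deposited raw counts exported from the scanner, whole numbers for every probe not normalized, and entered as estimated counts. The authors also deposited a normalized signal made with NanoStringNorm. It equals the count less the negative-control mean, set to 0 below it and scaled to a housekeeping sum of 9027.27, with a largest difference of 4.23e-06 over 8205 values, and served as an alternative. Every column was mapped by the sample's title.

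Each scaling factor multiplied a factor from the positive controls by another from the housekeeping genes, set to a geometric mean of 1 over the 15 samples. Genes were fitted in edgeR 4.0.16 (R 4.3.3) with a quasi-likelihood F test, robust, 1 mean per group and Benjamini-Hochberg adjustment over 359 genes, after the function had been tested on simulated data. DESeq2 1.42.0 was an alternative. Per-sample measures were compared by exact permutation tests (scipy). Sham pairs differed by chi-squares of 4.02 to 46.2 per degree of freedom, so no library was counted more than once. Promoter sequences and symbols came from RefSeq tables of GRCm38.p6, in which 537 probe accessions were found.

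The samples, the 40 gene lists and the rules were chosen with earlier results of these data known. Genes named are the 30 most abundant in sham, up to 4 leading members of each list, members of named families above background in no sham sample, the 10 most and 5 least variable genes above background in all, Tnf, Il1b and Il6, and genes that passed only after injury. Others were named after their values were seen. No label pairs the samples. A few measured genes are left unnamed.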

Additional observations from a re-analysis of the deposited data

Results flagged for a closer look

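The 4 sham values of each named gene, and the number of genes above background and the share of the 10 most abundant genes in sham, 2 dpi and 14 dpi, were examined for a sample whose gap to the nearest other was, as a part of the range, above Dixon's 95% critical value. Of 150 sets 9 had such a sample, and chance alone gives about 1 in 20. In sham replicate 4, S100a9 (4176 normalized counts, the others 114 to 378), S100a8 (3592, the others 92.0 to 296) and Camp (690.4, the others 12.8 to 49.0) were high together. In replicate 2, Cebpb (1391, the others 923 to 999), Tnfsf13b (76.4, the others 37.2 to 42.6) and Jak1 (307, the others 263 to 266) were high. In replicate 3, Cd9 was high (1299, the others 1053 to 1093) and Ly86 was low (1652, the others 2100.2 to 2191). In replicate 1, Cd22 was high (64.6, the others 26.7 to 32.7).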

How the results depend on the processing

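No paired analysis was possible because the labels give no numbers that tie samples of different groups. The number of genes above background in all sham samples was 230 to 267 under the other limits and 254 to 277 without each sham sample in turn, and that in none was 184 to 225 and 197 to 214. The share of the 10 most abundant genes was 36.8% with the negative-control mean subtracted (in the deposited signal too) and 34.4 to 35.1% without each sample. The median CV was 56.8% with positive-control factors alone, and between 14.7 and 23.7% under the other scalings, with 17.2 to 20.5% without each sample. Levels of the 144 named genes moved by more than their SD for 17 genes with positive-control factors alone, and for 0 with TMM or housekeeping factors.

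The 60 dpi difference in genes above background was 27.4 with NEG_B left out (-32.0 to -11.0 without each sample), and in the share of the 10 most abundant genes -1.92 without S100a8, S100a9 and Camp, an alternative chosen after seeing the data, and -2.71 to 2.27 without each sample. It was -2.71 without 60 dpi replicate 2, the sample richest in these genes. The other differences ran from 14.6 to 35.6 (2 dpi) and 6.33 to 27.3 genes (14 dpi), and from -2.69 to -1.64 and 3.12 to 4.05 percentage points, without each sample, and none passed after adjustment.

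Among the 30 genes, calls with TMM factors were 1 higher and 8 lower at 2 dpi, 10 higher and 6 lower at 14 dpi and 1 higher and 7 lower at 60 dpi. With DESeq2 they were 2 higher and 8 lower, 10 higher and 7 lower, and 2 higher and 9 lower. With positive-control factors alone there were 0 in each direction (at an unadjusted p under 0.05, 0 to 2). A fit of only the groups compared called 0 higher and 12 lower at 2 dpi, 13 and 1 at 14 dpi, and 1 and 2 at 60 dpi. The 30 most abundant genes over all 15 samples were chosen after seeing the data. They had 1 higher and 10 lower at 2 dpi, 17 and 0 at 14 dpi, and 4 and 3 at 60 dpi. Without each sample the calls were 0 to 1 higher and 9 to 15 lower (2 dpi), 9 to 13 and 1 to 1 (14 dpi), and 1 to 4 and 2 to 3 (60 dpi). The 9 lower at 2 dpi came without sham replicate 2, the 1 higher at 2 dpi without sham replicate 4, and only 1 was higher at 60 dpi without sham replicate 1, 2 dpi replicate 3, or 60 dpi replicate 1 or 2. The cause of these changes was not tested. Counts near the limit of 26.1 to 34.0 cannot tell a low level from none, and 1 probe per gene and 4 samples limit the precision.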
